A study of Mus musculus with 8 samples.

Results

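Smooth muscle cells of vessel walls contract by sliding actin thin filaments past myosin thick filaments, after a calcium-activated kinase phosphorylates the myosin regulatory light chain. Their filaments are crosslinked and tied to the membrane by a set of anchoring proteins. In peripheral nerve such cells surround the arterioles of the sheath and the blood supply inside it. The smooth muscle contractile genes described here are Acta2, Tagln, Myh11, Cnn1, Myl9, Synpo2, Mylk, Des, Flna and Lmod1. They were found by the gene name given to each probe in the scanner files. The 10 genes had 13 probes among 55681 on the array, and 9 of the genes had a probe that was bright enough to keep, among 15341 kept gene names.

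The nerves came from male mice 60 days old, and their RNA was hybridised to 8 Agilent arrays with 2 colours. There were 4 arrays of wild-type (non-transgenic) mice and 4 of SOD1G93A transgenic mice, which carry a mutant human SOD1 and serve as a model of amyotrophic lateral sclerosis. The series title calls them presymptomatic. Strain, the transgene's promoter and whether animals were pooled for an array are not given in the sources used here. Sciatic nerve RNA was labelled with Cy3 throughout, and a common reference, RNA pooled from neonatal heart, liver and kidney of both genotypes, with Cy5. Values are log2 ratios of Cy3 to Cy5, so a difference of -1 means a signal halved relative to the reference. The series design calls the 4 arrays of a group biological replicates. In the labels' array names, wild-type and SOD1G93A arrays have different first position numbers, with one number per genotype, so slide position cannot be told apart from genotype.

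The share of spots that rose clearly above background in the nerve channel lay between 35.5% and 41.7% on the 8 arrays. The labelled tissue was checked with 12 Schwann cell markers, which were all measured. Among them the myelin transcription factor gene Egr2 averaged 5.30 ± 0.040 (SD, n = 4) in wild-type and 4.84 ± 0.32 in SOD1G93A nerve. Egr2 was the 1 marker with a lower mean in SOD1G93A nerve, and the other 11 were higher. The neuregulin receptor gene Erbb3 averaged 0.29 ± 0.13 in wild-type and 0.59 ± 0.16 in SOD1G93A nerve. Wild-type replicate 1 and SOD1G93A replicate 1 lay at opposite ends of the first principal component over all genes, at -33.7 and 30.3, with the other arrays between -14.7 and 10.8. The median Cy3 intensity on kept spots was also highest on the former array, 735.5, and lowest on the latter, 377.9.

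Many smooth muscle genes are controlled by serum response factor, a transcription factor that binds the CArG box, together with its cofactor myocardin. RefSeq promoter windows (GRCm38.p6) around each gene's start were found for 8 of the 10 genes, Tagln and Myh11 being without one. That of Myl9, for example, was chr2:156775214-156775513. The CArG box was searched on both strands, its pattern being the same on each, with an exact match or 1 base off. An exact match was found in 1 of the 8 windows, against 1.63% of all 32851 promoters, and a match at most 1 base off in 4 of the 8, against 21.1% of all. The stretches of Myl9 (chr2:156775284-156775383, plus strand), which holds the exact match, and of Acta2 (chr19:34255384-34255483, minus strand) are shown 5′ to 3′, with matches in capitals.
Myl9: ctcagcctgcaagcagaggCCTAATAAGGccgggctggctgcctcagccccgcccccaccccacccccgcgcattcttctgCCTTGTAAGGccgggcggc
Acta2: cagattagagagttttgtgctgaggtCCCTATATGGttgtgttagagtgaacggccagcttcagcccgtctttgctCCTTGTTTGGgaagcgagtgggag
The exact match of Myl9 began 161 bases before the start, and its other match, 1 base off, 99 bases before. Both matches of Acta2 were 1 base off, at 84 and 34 bases before the start. Lmod1 had such matches at 189 and 164 bases and Flna at 44 bases. Des, Synpo2, Cnn1 and Mylk had none in their windows. None of these matches was tested as a binding site.

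The comparison asked whether smooth muscle contractile genes differ in presymptomatic SOD1G93A nerve. All 9 measured genes had a lower mean in SOD1G93A than in wild-type nerve, against 54.7% of all genes. The genes were chosen with earlier results of these data known and vary alike over the arrays. Shares set beside those of all genes are therefore description only. None passed the test (0 of 9), where 0.163% of all genes were called in either direction and 0.0913% as lower. At an unadjusted p under 0.05, 7 of the 9 were lower, against 6.57% of all genes, and 0 were higher, against 4.84%. The limma p-values assume an equal spread in both genotypes, and the spread of these genes, described below, was unequal. The differences ran from -1.90 for Cnn1 to -0.39 for Myl9, with a median of -0.79, while the median over all genes was -0.02. The adjusted p of the 9 genes ran from 0.217 to 0.515 (limma). The groups overlapped for all 9, whereas they did not overlap for 8% of all genes, 4.33% with SOD1G93A lower. In bulk nerve, a difference in the number of smooth muscle cells and one in RNA per cell cannot be told apart. The means of skeletal muscle, adipocyte, endothelial and pericyte markers, given below, were highest on wild-type replicates 1 and 2. So was, narrowly, that of fibroblast and matrix markers. The part of these cell types was not tested.

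The overlap had the same form in each gene. Wild-type replicate 1 was the highest of the 8 arrays for 9 of 9 genes, and wild-type replicate 2 was the next for 9 of 9. Both therefore lay above all 4 SOD1G93A arrays for every measured gene, against 27.9% of all genes for replicate 1 and 21.6% for replicate 2. Wild-type replicate 3 lay above all 4 SOD1G93A arrays for 6 of 9 genes, against 23.8% of all genes. Wild-type replicate 4 lay above all 4 for 0 of 9, against 19.9% of all genes.

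**Figure D1:**
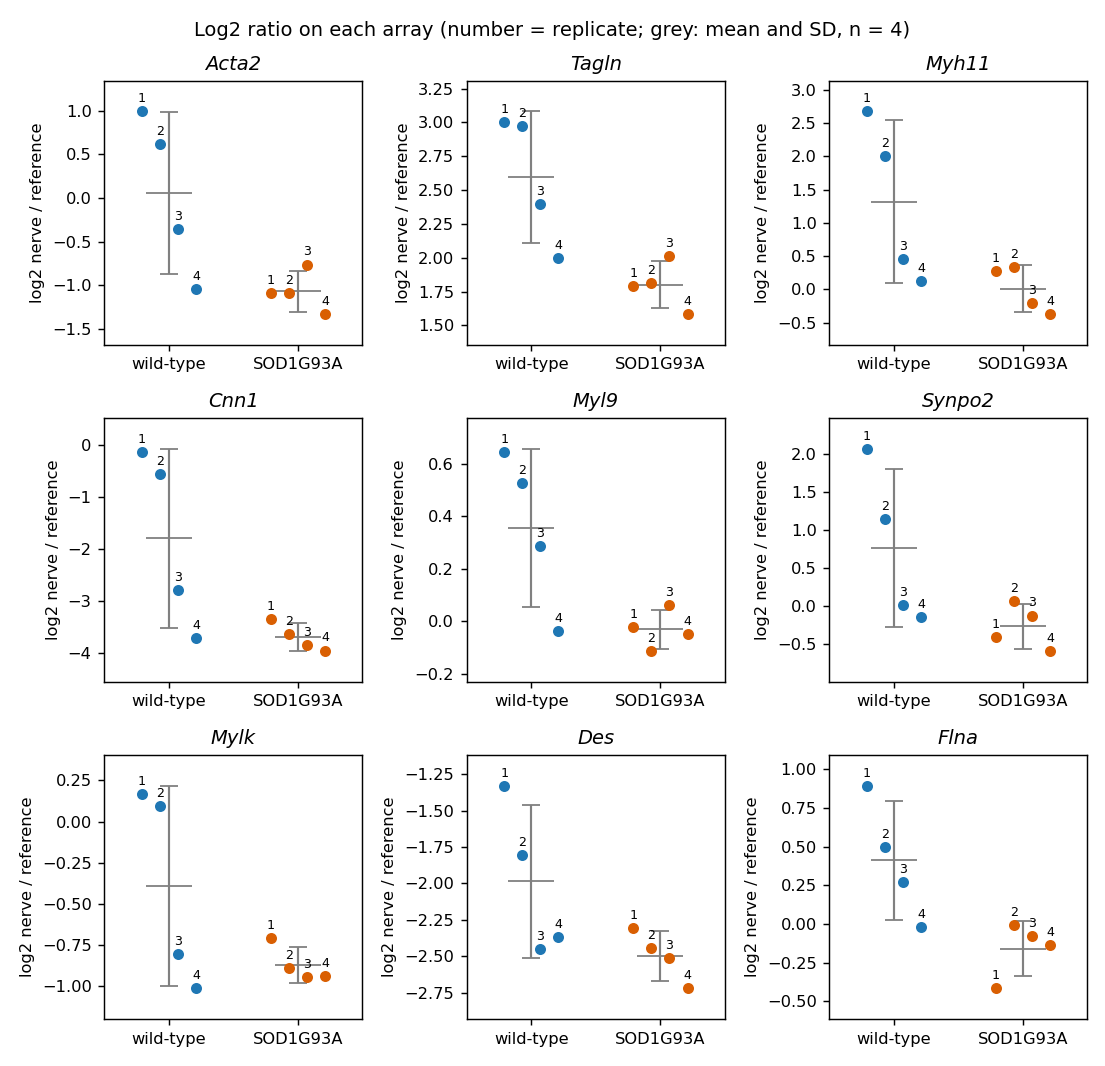
Log2 ratio of nerve (Cy3) to reference (Cy5) on each of the 8 arrays for the 9 measured genes, with the replicate number above each point and the mean and SD of 4 arrays in grey. In every panel wild-type replicates 1 and 2 stand above all other arrays, and wild-type replicate 4 lies at or below the highest SOD1G93A array.

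Among thin filament genes, Acta2 encodes the smooth muscle actin isoform. Its probe lies at chromosome 19, 34316060 to 34316119 on mouse build mm9. Acta2 had log2 ratios of 0.99, 0.62, -0.35 and -1.04 on wild-type arrays 1 to 4, and of -1.09, -1.08, -0.76 and -1.33 on SOD1G93A arrays 1 to 4. Wild-type replicates 1 to 3 were above every SOD1G93A array and replicate 4 was inside their range. The difference was -1.12 ± 0.39 (SE, limma adjusted p = 0.324), which is 2.18-fold lower with a 95% interval from 1.19 to 3.99-fold. The Acta2 probe was printed on 10 spots, and the SD over its spots was at most 0.066 on any array.

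Tagln encodes transgelin, an actin-crosslinking protein, and was the gene with the smallest p. The probe lies at chromosome 9, 45738097 to 45738156. Tagln ratios were 3.01, 2.98, 2.40 and 2.00 in wild-type and 1.79, 1.81, 2.01 and 1.58 in SOD1G93A nerve. Wild-type replicate 4 and SOD1G93A replicate 3 differed by 0.01 in the direction that made the groups overlap. The difference was -0.79 ± 0.22 (SE, adjusted p = 0.217), or 1.73-fold lower with an interval from 1.23 to 2.44-fold.

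Cnn1 encodes calponin 1, an actin-binding inhibitor of the myosin ATPase, and had the largest difference of the 9. It was the gene with the 8th lowest difference of 15341. The probe lies at chromosome 9, 21913058 to 21913117. Cnn1 ratios were -0.14, -0.56, -2.78 and -3.71 in wild-type and -3.34, -3.64, -3.85 and -3.95 in SOD1G93A nerve. Wild-type arrays thus spanned 3.57 on the log2 scale, and SOD1G93A arrays 0.61. The difference of -1.90 ± 0.70 (SE, adjusted p = 0.356) corresponds to 3.74-fold lower, with an interval from 1.25 to 11.2-fold. Lmod1 encodes leiomodin 1, which nucleates actin filaments in smooth muscle. Its single probe, at chromosome 1, 137264581 to 137264640, was well above background in Cy3 on 0 of 8 arrays and in Cy5 on 0 of 8. No direction is given for it.

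Among thick filament genes, Myh11 encodes the smooth muscle myosin heavy chain, a defining marker of mature smooth muscle. The Myh11 probe lies at chr16:14202190-14202249 on mm9, minus strand, and is shown because this gene marks smooth muscle most closely.
Myh11 probe: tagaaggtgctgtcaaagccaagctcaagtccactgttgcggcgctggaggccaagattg
Myh11 ratios were 2.67, 2.01, 0.46 and 0.13 in wild-type and 0.28, 0.33, -0.20 and -0.37 in SOD1G93A nerve. Wild-type replicates 1 and 2 stood well apart from the other 6 arrays, which together spanned less than the gap to them. The difference was -1.31 ± 0.51 (SE, adjusted p = 0.379), or 2.48-fold lower with an interval from 1.11 to 5.53-fold.

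Myl9 encodes the regulatory light chain that is phosphorylated to start contraction. The probe lies at chromosome 2, 156607301 to 156607360. Myl9 ratios were 0.65, 0.53, 0.29 and -0.039 in wild-type and -0.022, -0.11, 0.062 and -0.048 in SOD1G93A nerve. The spread was the smallest of the 9 genes in both groups, and so was the difference, -0.39 ± 0.14 (SE, adjusted p = 0.348).

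Mylk encodes the kinase that phosphorylates this light chain. The kept Mylk probe, at chromosome 16, 35001266 to 35001325, gave 0.17, 0.093, -0.81 and -1.01 in wild-type and -0.71, -0.89, -0.94 and -0.94 in SOD1G93A nerve. Wild-type replicate 4 was the lowest of all 8 arrays. The difference was -0.48 ± 0.26 (SE, adjusted p = 0.515), and its 95% interval, from -1.06 to 0.10, included 0. The other Mylk probe, at chromosome 16, 34953958 to 34954017, was well above background in Cy3 on 0 of 8 arrays.

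Of the genes for anchoring and crosslinking proteins, Des encodes desmin, the intermediate filament of all muscle types. Its probe spans 226 bases of chromosome 1, chr1:75363404-75363629 on mm9, although its length is 60, and it is shown because the genomic span is longer than the probe.
Des probe: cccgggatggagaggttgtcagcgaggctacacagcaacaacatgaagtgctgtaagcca
Des ratios were -1.33, -1.80, -2.45 and -2.37 in wild-type and -2.31, -2.44, -2.52 and -2.72 in SOD1G93A nerve. Wild-type replicates 3 and 4 lay inside the SOD1G93A range. The difference was -0.51 ± 0.23 (SE, adjusted p = 0.447), and 3 of 4 SOD1G93A arrays showed the probe well above background. Over its 10 spots the SD was at most 0.12 on any array.

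Synpo2 encodes myopodin, an actin-bundling protein of the Z-disc and of smooth muscle. The kept Synpo2 probe lies at chromosome 3, 122779459 to 122779518, and gave 2.07, 1.14, 0.012 and -0.14 in wild-type and -0.40, 0.074, -0.12 and -0.59 in SOD1G93A nerve. Wild-type replicates 3 and 4 were again inside the SOD1G93A range. The difference was -1.03 ± 0.44 (SE, adjusted p = 0.419). The other Synpo2 probes passed the background criterion on 1 and 0 of 8 arrays.

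Flna encodes filamin A, a crosslinker of actin found in most cell types. The probe lies at chromosome X, 71468802 to 71468861. Flna ratios were 0.89, 0.50, 0.27 and -0.021 in wild-type and -0.42, -0.0059, -0.080 and -0.14 in SOD1G93A nerve. Only wild-type replicate 4 fell inside the SOD1G93A range. The difference was -0.57 ± 0.18 (SE, adjusted p = 0.289). When every kept probe was fitted on its own in place of 1 per gene, 34 of 19836 probes were called, or 0.171%, and none of the 9 kept smooth muscle probes was among them.

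The spread of these genes was unequal between the genotypes. The SD over wild-type arrays was larger than that over SOD1G93A arrays for 9 of 9 genes, against 41.8% of all genes. The ratio of the SDs ran from 2.14 for Flna to 6.39 for Cnn1, with a median of 3.52, and the median over all genes was 0.852. The median SD of the 9 genes was 0.61 in wild-type and 0.18 in SOD1G93A nerve, where the medians over all genes were 0.13 and 0.16. The equality of the SDs was not tested. The limma standard errors, p-values and intervals given here assume a common variance of each gene in both genotypes.

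**Figure D2:**
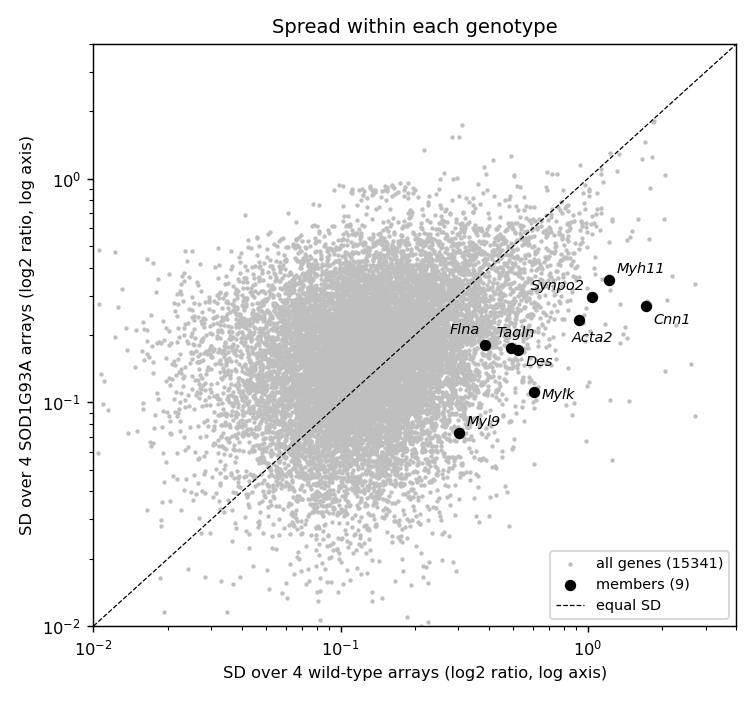
SD of the log2 ratio over 4 wild-type arrays (horizontal, log axis) and over 4 SOD1G93A arrays (vertical, log axis) for 15341 genes in grey and the 9 measured smooth muscle genes in black. All 9 lie below the dashed line of equal SD, with Cnn1 farthest to the right at 1.72 in wild-type and 0.27 in SOD1G93A.

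The differences were also computed in each channel. In Cy3 alone, normalized by quantiles, the 9 differences ran from -1.87 to -0.36, and 0 of 9 were called, against 0.235% of all genes (limma adjusted p from 0.149 to 0.504). In Cy5 alone, which carried the same reference pool on every array, they ran from -0.27 to 0.09, and 0 of 9 were called, against 0.248% of all genes. The largest Cy5 difference was that of Myh11, -0.27 ± 0.11 (SE, adjusted p = 0.285), beside -1.55 ± 0.62 in Cy3.

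**Figure D3:**
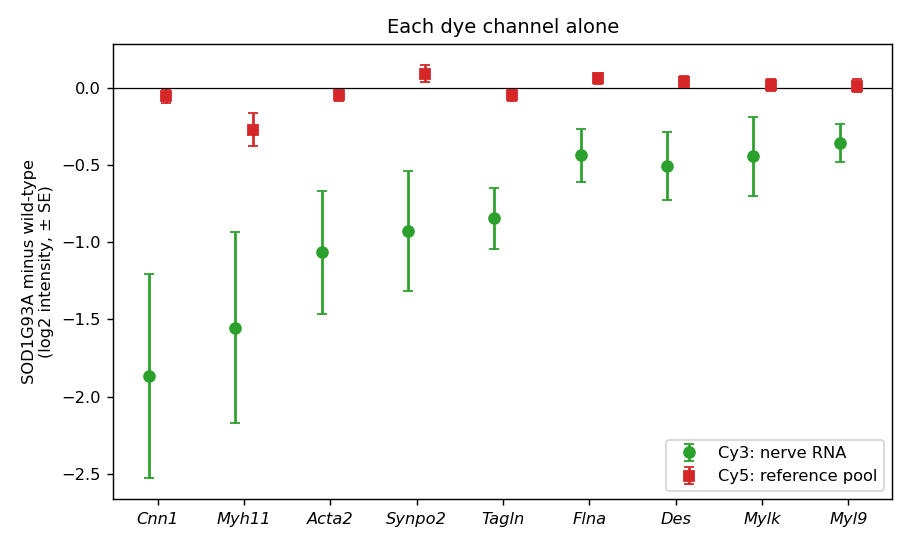
Difference of SOD1G93A from wild-type in log2 intensity for each measured gene in the Cy3 channel (nerve, circles) and the Cy5 channel (reference pool, squares), with bars of 1 SE from limma. The Cy3 values lie between -1.87 and -0.36, and all Cy5 values but that of Myh11 lie within 0.10 of 0.

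The sizes of the differences depended on which wild-type arrays were kept. Leaving out any single array kept the sign of all 9 genes, and 0 were called. Without wild-type replicate 1 the difference of Synpo2 was -0.60, of Mylk -0.29, of Des -0.29 and of Myh11 -0.86. Without wild-type replicate 2 that of Mylk was -0.32. Without wild-type replicate 4 all 9 differences were larger in size, with Cnn1 at -2.54, Acta2 at -1.49 and Tagln at -0.99 (limma adjusted p = 0.0936). Wild-type replicates 1 and 2 were also left out together, an alternative chosen after seeing the data. They were taken as the arrays with the highest mean of skeletal muscle markers. Only wild-type replicates 3 and 4 then remained, and the median difference of the 9 genes was -0.29. The arrays left out were the highest for all 9 genes, so a smaller wild-type mean followed from their choice. In that fit Tagln gave -0.40 (adjusted p = 0.614), Acta2 -0.37, Cnn1 -0.45, Myh11 -0.29 and Mylk 0.040. With the 6 arrays numbered 2 to 4, which leave out both ends of the first principal component, the median was -0.55.

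**Figure D4:**
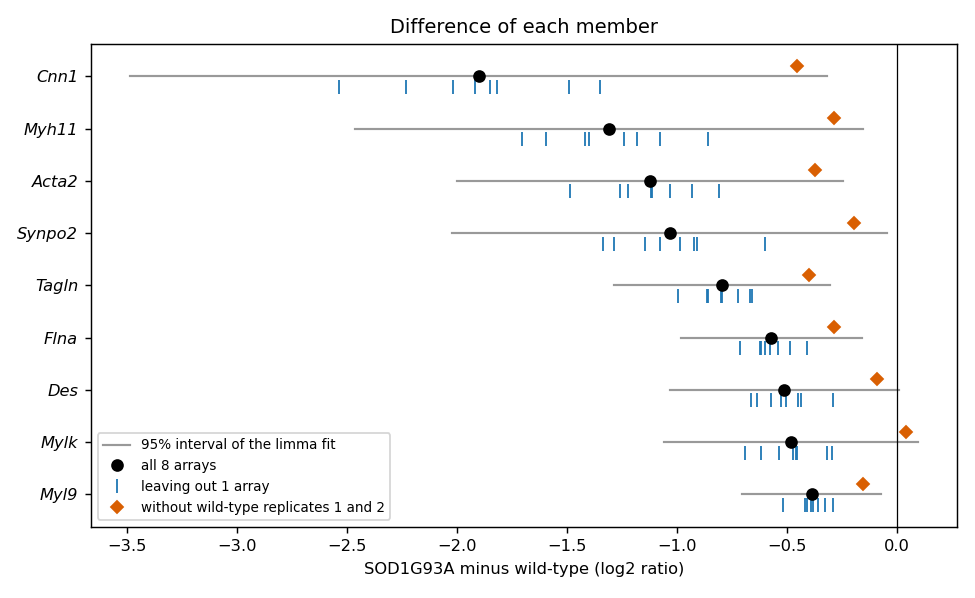
SOD1G93A minus wild-type difference in log2 ratio of each measured gene with all 8 arrays (black) and its 95% interval (grey), when leaving out 1 array (blue ticks) and without wild-type replicates 1 and 2 (orange). Orange points lie between -0.45 for Cnn1 and 0.040 for Mylk, nearer to 0 than any value that leaves out 1 array. Wild-type replicates 1 and 2 were the highest arrays for all 9 genes, so leaving them out had to lower each wild-type mean.

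The 9 genes varied alike over the arrays. Over 36 pairs of the 9 genes, Pearson's r over the 8 arrays ran from 0.82 to 0.98 with a median of 0.94, and from 0.73 to 0.99 with a median of 0.91 after each genotype's mean was taken out. These points share the arrays, and wild-type replicates 1 and 2 are far from the rest. Of all other genes, 1.51% had an r above 0.9 with the mean of the 9. The gene most like that mean was Tnnt3, the fast skeletal muscle troponin T (r = 0.99 over 8 arrays). The next were Mrvi1, a substrate of the cyclic GMP kinase in smooth muscle, the muscle ankyrin repeat gene Ankrd23, Fam13a, and the skeletal muscle actin gene Acta1, each with an r of 0.99. Mrvi1 had ratios of 0.45, 0.096, -0.51 and -0.58 in wild-type and -0.67, -0.60, -0.66 and -0.75 in SOD1G93A nerve, with no overlap, and was not called (adjusted p = 0.381). Acta1 had 2.41, 1.26, -1.91 and -2.15 in wild-type, against -2.55 to -2.07 in SOD1G93A nerve.

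Skeletal muscle markers were highest on the same arrays. All 12 measured markers of 16 had a lower mean in SOD1G93A nerve, against 54.7% of all genes. The median difference was -1.48, and 0 were called, against 0.163% of all genes. At an unadjusted p under 0.05, 5 of the 12 were lower, against 6.57% of all genes. Their mean centred log2 ratio was 2.62 and 1.68 on wild-type replicates 1 and 2, -0.69 and -0.54 on replicates 3 and 4, and between -0.89 and -0.51 on SOD1G93A arrays. Their summed Cy3 intensity ranged from 3457 to 67085 over wild-type and from 3066 to 4065 over SOD1G93A arrays. Myh1, Myh2, Mylpf and Myoz1 did not pass the filter on dim probes. Some of the 12 markers passed it largely through wild-type arrays. Myh4 and Atp2a1 each met the background criterion in 3 wild-type arrays but only 1 SOD1G93A array, and Ttn in 3 and 2. Their SOD1G93A values are thus close to background. The count of lower means is not independent of the filter. Tnnt3 had a difference of -1.62 ± 0.59 (SE) and the Z-disc gene Actn3 of -1.53 ± 0.58, the latter well above background on 2 of 4 SOD1G93A arrays. Without wild-type replicate 1 that of Actn3 was -0.95. The smooth muscle genes had a mean centred ratio of 1.30, 0.91, -0.027 and -0.39 on wild-type arrays, and between -0.64 and -0.36 on SOD1G93A arrays. On wild-type replicate 3 the skeletal mean was thus inside the SOD1G93A range and the smooth muscle mean above it, while on replicate 4 both were inside. On replicate 3, 3 of 12 skeletal markers and 6 of 9 smooth muscle genes exceeded all SOD1G93A arrays, against 23.8% of all genes. On replicate 4 the counts were 3 of 12 and 0 of 9, against 19.9% of all genes. The part of skeletal muscle RNA in the smooth muscle differences was not tested.

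**Figure D5:**
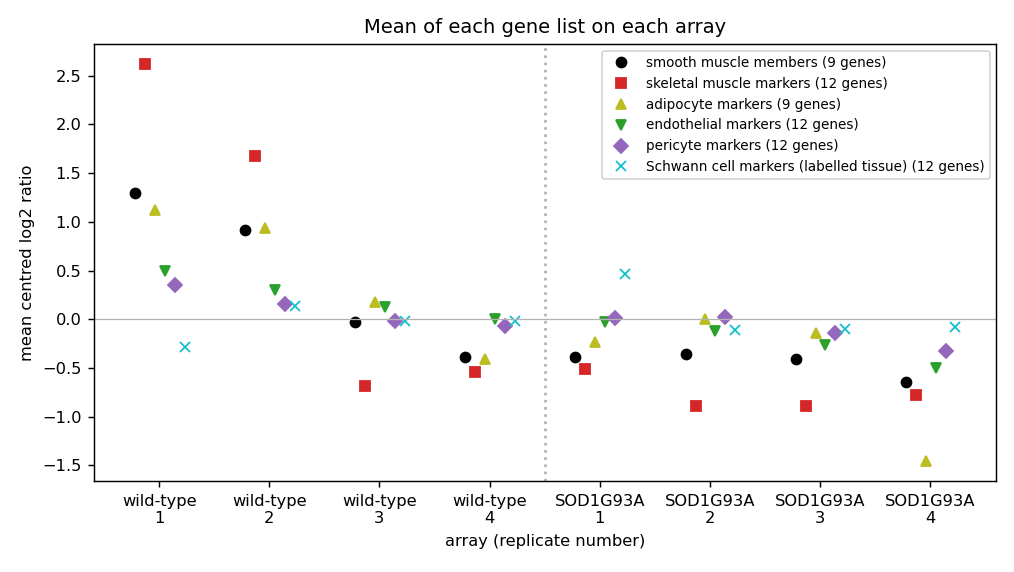
Mean log2 ratio of each gene list on each array, every gene being centred on its mean over the 8 arrays, for the smooth muscle genes and 5 marker lists. Skeletal muscle markers reach 2.62 and 1.68 on wild-type replicates 1 and 2, where the smooth muscle genes reach 1.30 and 0.91, and Schwann cell markers are lowest on wild-type replicate 1, at -0.29.

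Markers of other cells of the vessels and sheath were measured in the same way. Of 12 pericyte markers, all measured, 10 were lower, against 54.7% of all genes, and 2 higher. The median was -0.18, and 0 were called. At an unadjusted p under 0.05, 1 was lower, against 6.57% of all genes. Their mean centred ratio was 0.35 and 0.16 on wild-type replicates 1 and 2, and -0.017 and -0.065 on replicates 3 and 4. On SOD1G93A arrays it ran from -0.32 to 0.027. The mural cell receptor gene Notch3 gave -0.67 ± 0.29 (SE, adjusted p = 0.438) and its target Heyl -0.29 ± 0.13. Without wild-type replicate 1 these were -0.44 and -0.18. Of 12 endothelial markers, all measured, 11 were lower, against 54.7% of all genes, 0 were called, and the median was -0.51. At an unadjusted p under 0.05, 8 were lower, against 6.57% of all genes. The groups did not overlap for 4 of the 12 endothelial markers, against 8% of all genes. Robo4, a receptor of the vessel lining, had ratios of -0.13, -0.33, -0.43 and -0.43 in wild-type and -0.80, -1.13, -1.01 and -1.39 in SOD1G93A nerve. Unlike the smooth muscle genes it separated the groups on all arrays (difference -0.75 ± 0.13 SE, adjusted p = 0.0775). Without SOD1G93A replicate 1 the difference of Robo4 was -0.84 and it was called (limma adjusted p = 0.0136). That fit called 180 of 15341 genes, against 25 with all arrays. Leaving out any other single array gave Robo4 a limma adjusted p from 0.115 to 0.223, so it was not called. The junction gene Esam gave -0.61 ± 0.14. The endothelial mean ran from -0.0017 to 0.49 over wild-type and from -0.50 to -0.030 over SOD1G93A arrays, without overlap. It was highest on wild-type replicates 1 and 2, at 0.49 and 0.30.

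Adipocyte markers, 9 measured of 10 with Lep missing the filter, were all lower, against 54.7% of all genes. Their median was -0.79, and 0 were called. At an unadjusted p under 0.05, 3 of the 9 were lower, against 6.57% of all genes. The groups did not overlap for 1 of them, against 8% of all genes. Their mean ran from -0.41 to 1.12 over wild-type and from -1.46 to 0.0021 over SOD1G93A arrays. The lipid droplet gene Plin4 gave -1.65 ± 0.53 (SE) and the gluconeogenic enzyme gene Pck1 -1.76 ± 0.62. Of 10 fibroblast and matrix markers 7 were lower, against 54.7% of all genes, and 3 higher, with 0 called and a median of -0.05. At an unadjusted p under 0.05, 3 of these 10 were lower, against 6.57% of all genes. The groups did not overlap for 2, against 8% of all genes. Of these Pdgfra was lower, at -0.47 ± 0.20 (SE), and Col1a1 higher, at 0.39 ± 0.18. Pi16 gave -0.76 ± 0.29 and Clec3b -0.89 ± 0.38 (-0.54 without wild-type replicate 1). Cardiac markers, 8 measured of 9, had a median of -0.02 and 0 called, with the light chain genes Myl4 at -0.24 ± 0.09 and Myl7 at 0.16 ± 0.14. Without SOD1G93A replicate 1, the highest array for Myl7, that gene's difference was 0.015. Of 12 Schwann cell markers 11 were higher and 1 lower, where 54.7% of all genes were lower, with 0 called and a median of 0.12. Egr2 gave -0.46 ± 0.15 and the neuregulin receptor gene Erbb3 0.30 ± 0.10. The groups did not overlap for these 2, against 8% of all genes. The Erbb3 probe passed the background criterion on 2 of 4 arrays of each genotype. The part of these cell types in the smooth muscle differences was not tested.

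Another 24 genes of the smooth muscle contractile apparatus and its filaments were all measured. Of these, 18 were lower, against 54.7% of all genes, and 6 higher, and 0 were called. At an unadjusted p under 0.05, 6 were lower, against 6.57% of all genes, and 0 higher, against 4.84%. The median difference was -0.20. Actg2, the enteric smooth muscle actin, had ratios of -0.52, -0.77, -2.03 and -2.27 in wild-type and -2.65, -2.76, -2.74 and -2.89 in SOD1G93A nerve. All 4 wild-type arrays lay above all SOD1G93A arrays, with a difference of -1.36 ± 0.36 (SE, adjusted p = 0.200). Cald1, which encodes the thin filament protein caldesmon, had 0.51, 0.39, 0.30 and 0.35 in wild-type against 0.12, 0.057, 0.21 and 0.033. Its groups did not overlap either, and it is also made in cells other than muscle (difference -0.28 ± 0.08 SE, adjusted p = 0.229). Groups did not overlap for 3 of the 24 genes, against 8% of all genes.

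Among genes that control contraction through calcium and light chain phosphorylation, 12 of 19 were measured. Of these, 6 were lower and 6 higher, 0 were called, and the median was -0.02. Itpr1, a calcium release channel of the internal store, had 0.56, 0.22, 0.047 and 0.047 in wild-type and -0.12, -0.16, -0.11 and -0.18 in SOD1G93A nerve (difference -0.36 ± 0.12 SE, adjusted p = 0.295). Agtr1a, the angiotensin receptor, gave -0.48 ± 0.21 (SE, adjusted p = 0.438), and -0.24 without SOD1G93A replicate 1, its lowest array. The potassium and calcium channel genes Kcnmb1, Kcnma1 and Cacna1c were among 7 that did not pass the filter.

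Genes of the serum response factor and myocardin pathway were split evenly. Of 16 measured among 17, 8 were lower and 8 higher, 0 were called, and the median was -0.02. Klf4, a transcription factor known to repress smooth muscle genes, had ratios of -0.98, -0.81, -1.70 and -1.62 in wild-type and -0.78, -0.73, -0.22 and -0.62 in SOD1G93A nerve. All SOD1G93A arrays were above all wild-type arrays, and the difference of 0.69 ± 0.22 (SE, adjusted p = 0.281) was not called. Mkl2, now named Mrtfb, a cofactor of serum response factor, gave -0.22 ± 0.10 (SE, adjusted p = 0.426). Myocd, which encodes myocardin, did not pass the filter on dim probes.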

How the data were processed

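The authors deposited scanner files of 8 2-colour arrays with spot intensity, local background intensity and flags per dye, written by Agilent Feature Extraction 11.5.1.1 per the file headers. Version 11.0.1.1 and limma are named in the submitters' processing notes. Flags and probe identities are further deposited columns without a unit. The deposited log10 ratios of Cy5 over Cy3 of the whole-series values equal those in the scanner files (largest difference 0).

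Intensities were corrected by normexp with an offset of 50 and loess within arrays, control spots having no weight. Outlier spots were left out and spots of a probe averaged. A probe was kept where 4 or more of the 8 arrays showed it well above background in the nerve channel (19836 of 55681). The brightest kept probe stood for each gene name, giving 15341 rows. The log2 ratios were fitted by limma 3.58.1 in R 4.3.3 (package data.table, version 1.17.8) on genotype with 2-sided tests. Calls needed an adjusted p (Benjamini-Hochberg, over all rows) below 0.05. The code was tested on simulated data.

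The genes and lists were chosen with earlier results of these data known. From each other list the 2 genes of smallest p are named, and the 5 genes most correlated with the mean of the 9. Alternatives covered background correction, normalization, channels, filters, array weights, a block on replicate numbers, the variance prior, the choice of probe, the authors' log ratios and left-out arrays. Positions of probes come from the scanner files (mm9), and exon or UTR annotation of that build was not used here. Cross-hybridisation between related genes, such as the actins, was not tested. Each p-value rates the difference of the genotypes against the spread between arrays within them, and the number of arrays limits the precision. As pooling of animals is not given, that spread need not be the one between mice.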

Additional observations from a re-analysis of the deposited data

How the results depend on the processing

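Across 22 alternatives, 1 of them added after seeing the data, 0 smooth muscle genes were called in any, and 196 of 197 differences of single genes were negative. The exception was Mylk at 0.040 without wild-type replicates 1 and 2. That setting also moved the median of the genes to -0.286 from -0.79, and it was between -0.994 and -0.598 when single arrays were left out. With the stricter filter Des was not tested. The number of genes called over the whole array, 25, was 7 with Agilent's own processed signals, 7 with the authors' log ratios, 1 with median centring, 9 with scale normalization and 16 with no filter. It was 421 with array weights, 234 on the 6 arrays numbered 2 to 4, 7 without wild-type replicates 1 and 2, and from 3 to 180 when single arrays were left out. With a replicate block it was 1. Whether arrays of one number share more than that number is not known here. Over all genes, their deviations from group means correlated at -0.16 to 0.10, and 0 of 8 arrays correlated best with their own number. With the block, the SE of every measured smooth muscle gene but Flna fell, for Myh11 to 0.32 from 0.51. That of Flna rose to 0.20 from 0.18. The causes were not tested. Lmod1 and the dim probes of Mylk and Synpo2 are limited by signal over background.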
